A study of Mus musculus with 9 samples.

Results

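The nuclear genes of respiratory complexes II to V were followed in mouse gastrocnemius, a calf muscle, after 7 days of leg immobilization. Members were chosen by gene symbol alone: Sdha to Sdhd and the Sdhaf assembly factors (complex II), the Uqcr genes and Cyc1 (complex III), Cycs (cytochrome c), the Cox genes (complex IV and its assembly factors) and the Atp5 genes (complex V), with pseudogenes left out. The rule found 65 of 55487 gene rows, which carry 64 symbols because Atp5o has a second row. Complex II had 8 members, complex III 9, cytochrome c 1, complex IV 29 and complex V 18. A minimum of 0.3 TPM in 3 or more libraries out of 9 left 61 members to test, among 16140 genes that passed it. TPM is a transcript level, corrected for transcript length and scaled to the same total in each library, so levels can be set side by side between genes.

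In all, 3 groups of 3 libraries were compared, all from C57BL/6 male mice that the series text gives as 8 weeks old. The methods say instead that they were bought at that age and kept for some weeks more before the experiment. In Dis, the hindlimb had been held for 7 days by a thermoplastic bandage. Con was the free leg on the other side of immobilized mice, so it is not an untreated muscle, and NC was muscle of mice with no treatment. The labels do not say which Dis and Con libraries came from the same mouse. The design text of the series describes Con as immobilized too and names the right leg, whereas the sample labels give Con as not immobilized and the methods name the left leg; the sample labels were followed. The methods also name tibialis anterior as the source of RNA, whereas every sample label names gastrocnemius, and which of the muscles was used was not tested.

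Complex II passes electrons from succinate to ubiquinone, complex III passes them on to cytochrome c, complex IV passes them to oxygen, and complex V uses the proton gradient so built to make ATP. Complexes III, IV and V hold subunits of both genomes, and every subunit of complex II is nuclear. Skeletal muscle expresses its own forms of several complex IV subunits, and oxidative fibres hold more of all these complexes than glycolytic fibres.

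The deposited TPM keep no read totals, so depth is unknown and the precision of each value rests on 3 libraries per group. The library Dis2 stood apart from the other 8 on the first principal component, and had the lowest share of TPM from mitochondrially encoded genes (13.8%, against 19.3% to 23.4% in the others) and a macrophage marker sum of 246 TPM, against 33.1 to 82.8 TPM elsewhere. A list of 5 cardiac or smooth muscle genes summed to 60.1 to 80.2 TPM in Dis, 58.2 to 89.8 TPM in Con and 52.3 to 82.4 TPM in NC, with Nppa listed at 0 throughout. Of the 4 tested, 0 were called against Con and 1 was called higher against NC, beside 13.6% of all tested genes. Skeletal fibre genes (Acta1, Ckm, Mb and Tnnt3) summed to 72165 to 92977 TPM in Dis, 81595 to 96976 TPM in Con and 78726 to 91147 TPM in NC. Within that sum, Mb (myoglobin, typical of oxidative fibres) was lower in Dis against Con, with -1.06 ± 0.27 (SE, limma adjusted p = 0.031), while Acta1 had -0.57, Ckm 0.26 and Tnnt3 0.24 on the log2 scale and were not called. Fibre type markers moved with the groups. Myh2, the myosin of oxidative 2A fibres, was at 505 to 734 TPM in Dis, against 2130.1 to 2609.9 TPM in Con and 904 to 2182 TPM in NC. A list of 7 slow fibre genes summed to 989 to 3013 TPM in Dis, 2819.8 to 8446 TPM in Con and 3494 to 7452 TPM in NC. Of the 7, 3 were called lower in Dis against Con and 2 against NC, beside 3.08% and 2.99% of all tested genes. The sum of 5 genes of 2B and 2X fibres (Myh4, Myh1, Mylpf, Actn3 and Atp2a1) went the other way. It was at 73900 to 78221 TPM in Dis, above the 58487 to 65797 TPM in Con and 59892 to 65323 TPM in NC. The median log2 fold change of the 5 was 0.44 against Con and 0.30 against NC, beside 0.20 and 0.21 over all tested genes. The value of 1 of the 5 was negative in each comparison. In each comparison 1 of the 5 was called higher, beside 14.1% and 13.6% of all tested genes. In a bulk sample, fewer fibres of a type and less RNA per fibre cannot be told apart, and the part of fibre type in the results below was not tested.

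Immobilized muscle held less transcript of the members as a whole. The members together took 1.71%, 1.51% and 1.68% of all TPM in Dis, against 2.16%, 1.95% and 2.06% in Con and 2.06%, 2.13% and 2.11% in NC, so every Dis library was below every library of the other groups. Of the 61 tested members, 25 were lower and 1 was higher in Dis than in Con, with a median log2 fold change of -0.32. Against NC, 31 were lower and 0 higher in Dis, with a median of -0.33, and 41 members had an unadjusted limma p below 0.05 in either direction. A call here is an adjusted p below 0.05 from limma on log2(TPM + 0.5), fitted to all tested genes in all 9 libraries with Benjamini-Hochberg adjustment. Among all tested genes, 3.08% were called lower and 14.1% higher in Dis against Con, and 2.99% lower and 13.6% higher against NC. All 3 Dis libraries lay below all 3 Con libraries for 39 members (6.43% of all tested genes), and below all 3 NC libraries for 39 (6.71% of all tested genes). Most members are abundant, and among the 905 genes with a mean of at least 100 TPM the shares called lower were 12.5% against Con and 14.3% against NC, beside 23 and 28 of the 42 members at that level.

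The median over all tested genes was itself shifted, by 0.20 on the log2 scale in Dis against Con and by 0.21 against NC, so the members' medians stood at -0.52 and -0.54 relative to it. With libraries rescaled by median ratios, 37 members were called lower and 0 higher against Con, and over all genes 431 were then called higher and 750 lower, beside 2273 higher and 497 lower in the deposited scale. Quantile normalization gave 19 members lower against Con, array weights 19 and a fit with no mean trend 17. Over all tested genes these called 643, 399 and 411 lower. The members' count against Con also rested on single libraries, being 6 without Con1, 15 without Con2 and 10 without Con3. The count over all tested genes fell too, from 497 to 187, 271 and 253. Against NC, 14 members were lower without NC1 and 15 without NC3, where the count over all tested genes fell from 482 to 184 and 226. Without Dis2, the library that stood apart, 20 members were lower against Con and 26 against NC, beside 574 and 444 of all tested genes. By complex, without Con1 0 of complex II, 1 of complex III, 1 of complex IV and 3 of complex V were lower against Con, and without NC1 4 of complex II, 2 of complex III, 2 of complex IV and 5 of complex V against NC. Cyc1, Cycs, Cox7a1, Atp5g1, Atp5g3 and Atp5k were called against Con whichever single library was left out. The plot of fold changes by complex shows how the members divide.

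**Figure D1:**
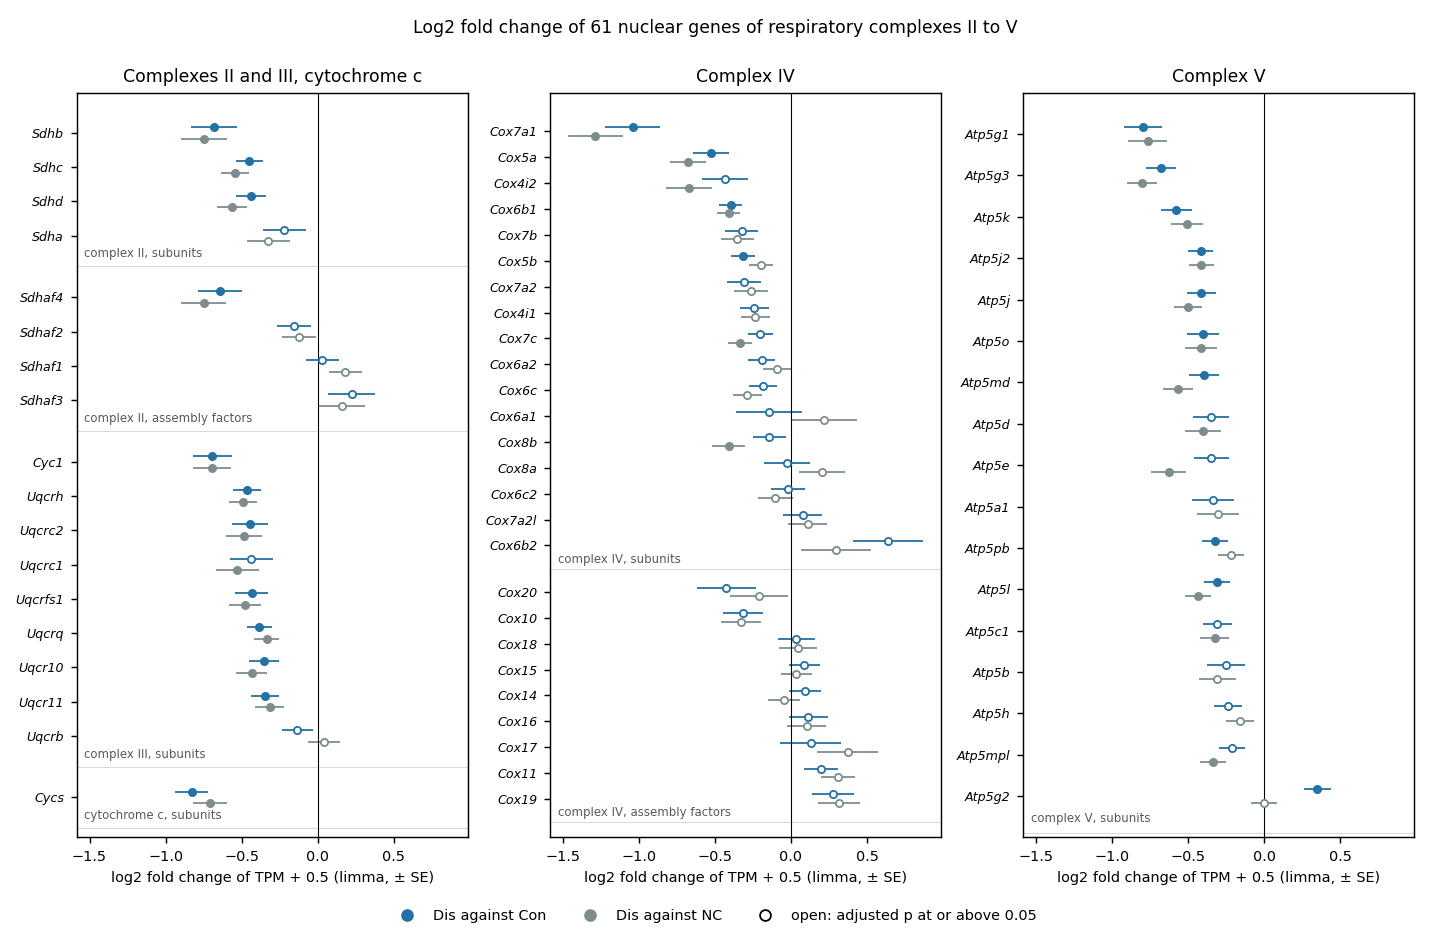
Log2 fold change of TPM + 0.5 in Dis against Con (blue) and Dis against NC (grey) for the 61 tested members, with the SE from limma, and with filled points where the adjusted p was below 0.05. Subunits of complexes II, III and V lie mostly left of 0, down to -0.80 for Atp5g3 against NC, while the complex IV assembly factors lie on both sides of 0 with no filled point.

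Promoters of nuclear respiratory genes are known for sites of NRF1, of GABPA (also called NRF2) and of the oestrogen-related receptors (ERR). RefSeq promoters (GRCm38.p6, 250 bases before to 50 after each start) were matched by symbol for 48 member genes, 37 of subunits and 11 of assembly factors, and searched on both strands for CGCATGCG (NRF1), CCGGAAG (GABPA), AAGGTCA (ERR) and AAGATGG (YY1). The NRF1 motif reads the same on both strands, and no hits of different motifs overlapped in these promoters. CGCATGCG was in 8 of 37 subunit promoters, in 0 of 11 of the assembly factors and in 2.07% of all 27025 promoters. CCGGAAG was in 13 of 37 and 8 of 11 beside 9.93% of all, AAGGTCA in 5 of 37 and 0 of 11 beside 5.38%, and AAGATGG in 4 of 37 and 2 of 11 beside 7.28%. A set of 6 stretches of 60 bases, 80 to 21 bases before the start, are printed 5′ to 3′ on the strand of the gene with the motif in capitals, as examples of these motifs beside members described below, Atp5g2 and Cycs because they share a motif and moved in opposite directions against Con. Atp5k and Uqcr11 were added to them after their values were seen, and the 6 were not chosen as those that changed most. The first 3 hold the NRF1 motif (Cycs chr6:50566590-50566649, Atp5k chr5:108434420-108434479, Atp5g2 chr15:102671068-102671127), the fourth the ERR motif on the opposite strand (Atp5g3 chr2:73911347-73911406), and the last pair the GABPA motif, on the opposite strand in Sdhd (Sdhd chr9:50603870-50603929, Uqcr11 chr10:80406842-80406901). All 6 genes lie on the minus strand. Positions are counted from the RefSeq start, and the stretch of Atp5g2 lies inside its deposited locus, which begins farther upstream, as does part of that of Atp5k.
Cycs: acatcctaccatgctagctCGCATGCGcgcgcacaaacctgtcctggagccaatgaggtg
Atp5k: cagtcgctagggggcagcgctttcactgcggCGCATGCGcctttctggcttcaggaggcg
Atp5g2: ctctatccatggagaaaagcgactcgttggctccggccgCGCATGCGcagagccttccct
Atp5g3: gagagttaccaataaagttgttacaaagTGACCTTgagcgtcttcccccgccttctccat
Sdhd: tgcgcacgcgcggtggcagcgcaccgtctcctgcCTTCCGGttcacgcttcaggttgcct
Uqcr11: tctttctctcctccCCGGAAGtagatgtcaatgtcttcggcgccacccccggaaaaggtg

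The same NRF1 motif stood before the RefSeq start of Cycs, which fell, and before that of Atp5g2, the one member called higher against Con. Of tested subunits whose promoter held CGCATGCG, 5 of 8 were lower and 1 was higher in Dis against Con (median log2 fold change -0.38), beside 15 of 28 lower among subunits without it (median -0.35). With AAGGTCA, 4 of 5 were lower (median -0.44), beside 16 of 31 without it (median -0.35), and with CCGGAAG 9 of 13 (median -0.40), beside 11 of 23 (median -0.32). These are descriptions of letters in a window, and no difference between such groups was tested.

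In complex II, 3 of 4 subunits fell in Dis against both Con and NC, and the largest subunit did not pass the test. Sdhb, the iron-sulphur subunit, was at 311, 205 and 266 TPM in Dis, against 459, 366 and 418 TPM in Con and 422, 455 and 419 TPM in NC. Dis lay below both other groups without overlap, and the log2 fold change was -0.68 ± 0.15 (SE, limma adjusted p = 0.018) against Con and -0.75 ± 0.15 (SE, limma adjusted p = 0.013) against NC. The membrane anchors moved less: Sdhc was at 60.3 to 71.02 TPM in Dis, against 86.8 to 95.8 TPM in Con and 93.9 to 102 TPM in NC. For Sdhc the log2 fold change was -0.45 ± 0.09 (SE, limma adjusted p = 0.013) against Con and -0.54 ± 0.09 (SE, limma adjusted p = 0.0064) against NC. Sdhd was at 121 to 150.2 TPM in Dis, against 177 to 197 TPM in Con and 189.6 to 213 TPM in NC. For Sdhd the log2 fold change was -0.44 ± 0.10 (SE, limma adjusted p = 0.021) against Con and -0.56 ± 0.10 (SE, limma adjusted p = 0.0084) against NC. Sdha, the flavoprotein that oxidizes succinate, was at 433, 341 and 447 TPM in Dis, against 547, 440.2 and 432 TPM in Con and 478, 573 and 473 TPM in NC. For Sdha, 2 Dis libraries reached the range of Con, and its log2 fold changes were -0.22 ± 0.14 (SE, limma adjusted p = 0.31) against Con and -0.32 ± 0.14 (SE, limma adjusted p = 0.14) against NC. Against Con, the call of Sdhb was lost without Con1 or Con3 (highest adjusted p 0.074), that of Sdhc without Con1 (highest adjusted p 0.060) and that of Sdhd without Con1 or Con3 (highest adjusted p 0.083), whereas all 3 calls against NC remained whichever library was left out.

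Of the 4 complex II assembly factors, Sdhaf4, which helps mature the flavinated Sdha, fell in Dis, at 13.1, 9.53 and 9.56 TPM in Dis, against 15.8, 17.9 and 16.98 TPM in Con and 18.03, 16.1 and 20.8 TPM in NC. It was the one called among the 13 tested members that are assembly factors. Its log2 fold change was -0.64 ± 0.14 (SE, limma adjusted p = 0.020) against Con and -0.75 ± 0.14 (SE, limma adjusted p = 0.011) against NC, and the call against Con was lost without Con1, Con2 or Con3 (highest adjusted p 0.067). Sdhaf1, needed for the iron-sulphur subunit, had log2 fold changes of 0.03 ± 0.11 (SE, limma adjusted p = 0.87) against Con and 0.18 ± 0.11 (SE, limma adjusted p = 0.27) against NC, at 9.49 to 11.6 TPM in Dis, against 10.1 to 10.5 TPM in Con and 8.55 to 10.2 TPM in NC, and Sdhaf3 had 0.22 ± 0.15 (SE, limma adjusted p = 0.34) against Con and 0.16 ± 0.15 (SE, limma adjusted p = 0.48) against NC. The small values of Sdhaf1 and Sdhaf3 changed sign under some of the other scalings.

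Most of complex III fell: 7 of 9 subunits fell in Dis against Con and 8 of 9 against NC, with medians of -0.44 and -0.48. Cyc1, cytochrome c1, the haem protein that hands electrons to cytochrome c (chr15:76343523-76346260, plus strand), was at 244, 183 and 232 TPM in Dis, against 399, 323 and 340.0 TPM in Con and 337, 366 and 355 TPM in NC. Every Dis library was below every Con and NC library, and its log2 fold change was -0.69 ± 0.13 (SE, limma adjusted p = 0.010) against Con and -0.69 ± 0.13 (SE, limma adjusted p = 0.0093) against NC. Uqcrh, the hinge protein beside cytochrome c1, was at 306 to 378 TPM in Dis, against 465 to 480.3 TPM in Con and 469 to 487 TPM in NC. For Uqcrh the log2 fold change was -0.47 ± 0.09 (SE, limma adjusted p = 0.013) against Con and -0.49 ± 0.09 (SE, limma adjusted p = 0.010) against NC. Uqcrfs1, the Rieske iron-sulphur protein, was at 244 to 311 TPM in Dis, against 355 to 414 TPM in Con and 379.7 to 397 TPM in NC. For Uqcrfs1 the log2 fold change was -0.44 ± 0.11 (SE, limma adjusted p = 0.026) against Con and -0.48 ± 0.11 (SE, limma adjusted p = 0.018) against NC.

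The core proteins of complex III gave fold changes of similar size on either side of the threshold. Uqcrc2 was at 183 to 229 TPM in Dis, against 261 to 321 TPM in Con and 276 to 322 TPM in NC. For Uqcrc2 the log2 fold change was -0.44 ± 0.12 (SE, limma adjusted p = 0.034) against Con and -0.48 ± 0.12 (SE, limma adjusted p = 0.025) against NC. Uqcrc1 was at 479.6, 390.5 and 558 TPM in Dis, against 718, 581 and 621 TPM in Con and 639, 728 and 674 TPM in NC. For Uqcrc1 the log2 fold change was -0.44 ± 0.14 (SE, limma adjusted p = 0.059) against Con and -0.53 ± 0.14 (SE, limma adjusted p = 0.033) against NC, so it passed against NC and not against Con although its Dis and Con libraries did not overlap. Uqcrb, an accessory subunit that binds ubiquinone, was the exception, at 504, 454 and 463 TPM in Dis, against 526, 502 and 531 TPM in Con and 399.7, 498 and 489 TPM in NC, and its log2 fold changes were -0.13 ± 0.10 (SE, limma adjusted p = 0.39) against Con and 0.04 ± 0.10 (SE, limma adjusted p = 0.81) against NC. The value of Uqcrb against NC changed sign without NC1, in which it was lowest (-0.06), and without Dis1. Of the remaining accessory subunits, Uqcr10 was at 321 to 361 TPM in Dis, against 404 to 448 TPM in Con and 408 to 486 TPM in NC. For Uqcr10 the log2 fold change was -0.36 ± 0.10 (SE, limma adjusted p = 0.038) against Con and -0.44 ± 0.10 (SE, limma adjusted p = 0.019) against NC, and both Uqcr11 and Uqcrq were called lower in both comparisons. The call of Uqcr11 against Con was lost without Dis2, Dis3, Con1, Con2, Con3, NC1 or NC3 (highest adjusted p 0.12) and against NC without Dis2, Dis3, Con1, Con2, Con3, NC1, NC2 or NC3 (highest adjusted p 0.16). That of Uqcrq was lost against Con without Con1 or Con3 (highest adjusted p 0.069) and against NC without NC1 or NC3 (highest adjusted p 0.11).

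Leaving out single libraries ended several of these calls. Against Con, that of Uqcrh was lost without Con1 (highest adjusted p 0.057), that of Uqcrfs1 without Con1, Con2 or Con3 (highest adjusted p 0.097), that of Uqcrc2 without Dis2, Con1, Con2, Con3, NC1 or NC3 (highest adjusted p 0.12) and that of Uqcr10 without Dis2, Dis3, Con1, Con2, Con3, NC1 or NC3 (highest adjusted p 0.12). Against NC, that of Uqcrc1 was lost without Dis1, Dis2, Con3, NC1, NC2 or NC3 (highest adjusted p 0.10), that of Uqcrc2 without NC1, NC2 or NC3 (highest adjusted p 0.085), that of Uqcrfs1 without NC1, NC2 or NC3 (highest adjusted p 0.063) and that of Uqcr10 without NC1 or NC3 (highest adjusted p 0.083). Cyc1 was called in both comparisons under each of these fits.

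Cycs encodes cytochrome c, the soluble carrier between complexes III and IV (chr6:50562563-50566538, minus strand), and had the lowest adjusted p of all members against Con. It was at 106, 79.8 and 92.5 TPM in Dis, against 173, 152 and 168 TPM in Con and 145, 159 and 148 TPM in NC. All 3 Dis libraries were well below the other 6, and the log2 fold change was -0.83 ± 0.11 (SE, limma adjusted p = 0.0041) against Con and -0.71 ± 0.11 (SE, limma adjusted p = 0.0059) against NC. Part of its sequence is shared with annotated processed copies, whose summed level was 95.3% of its own mean. With these copies added, the level was 209.7, 158 and 177 TPM in Dis, against 332, 302 and 327 TPM in Con and 280.1, 307 and 295 TPM in NC, and the log2 fold change was -0.82 ± 0.11 (SE, limma adjusted p = 0.0040) against Con. How reads were divided between the gene and its copies is not stated, so the level of Cycs alone is uncertain and its direction was the same either way.

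**Figure D2:**
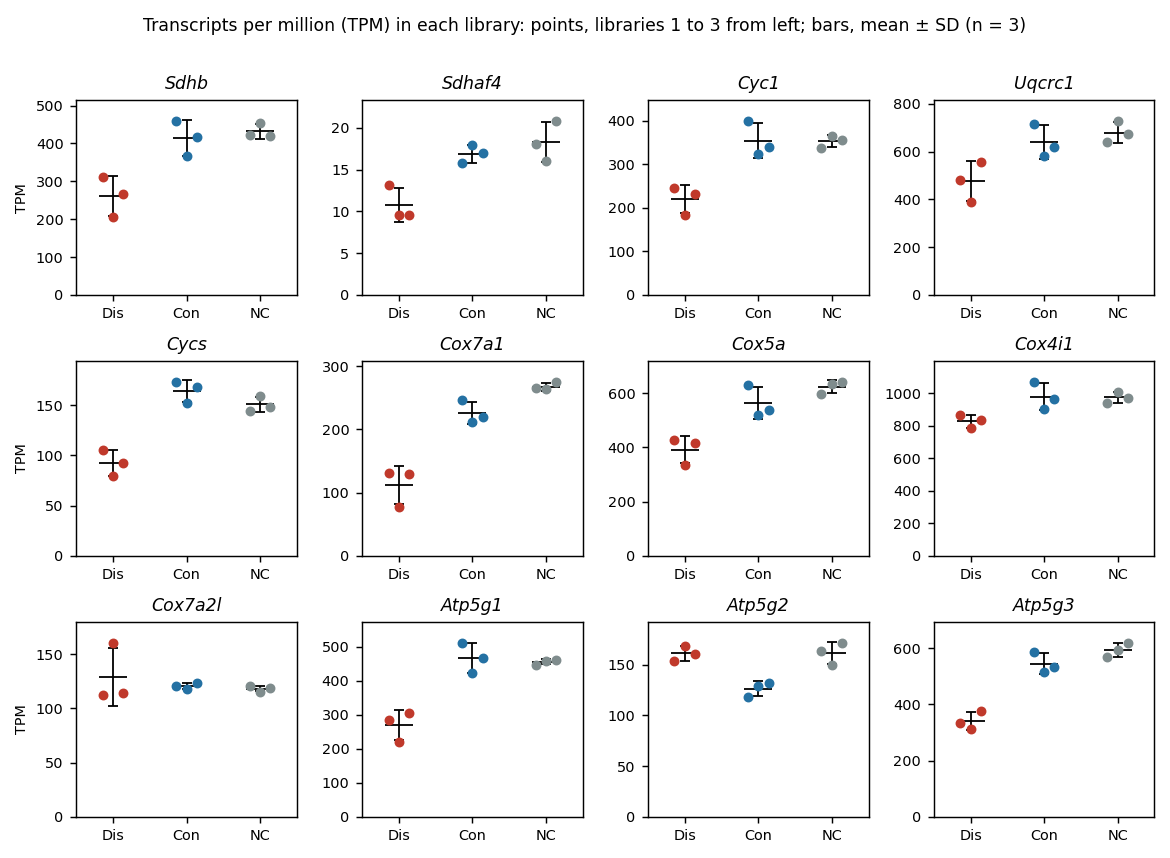
TPM of 12 members in each library (points, libraries 1 to 3 from the left) with the mean and SD of 3 libraries (bars), in Dis, Con and NC. Cox7a1 was at 77.3 to 131 TPM in Dis, below all Con and NC libraries, whereas Atp5g2 was at 154 to 169 TPM in Dis, above Con and within the range of NC.

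Complex IV was less uniform than complexes II, III and V in its counts, with 4 of 17 tested subunits called lower in Dis against Con and 6 of 17 against NC. Whether its fold changes differ from those of the other complexes was not tested. Cox7a1, the heart and muscle form of subunit 7a (chr7:30184144-30186078, plus strand), had the largest fall of all members, at 131, 77.3 and 129 TPM in Dis, against 246, 212 and 220.0 TPM in Con and 265, 263 and 275 TPM in NC. Its log2 fold change was -1.04 ± 0.18 (SE, limma adjusted p = 0.0087) against Con and -1.29 ± 0.18 (SE, limma adjusted p = 0.0045) against NC, and Dis lay below both other groups. Cox5a, a subunit on the matrix side, was at 426, 334 and 415 TPM in Dis, against 630.3, 519 and 538 TPM in Con and 596, 633 and 641 TPM in NC. For Cox5a the log2 fold change was -0.53 ± 0.12 (SE, limma adjusted p = 0.020) against Con and -0.68 ± 0.12 (SE, limma adjusted p = 0.0080) against NC. Cox6b1, the ubiquitous form of a subunit on the cytochrome c side, was at 268 to 281 TPM in Dis, against 355 to 371 TPM in Con and 347 to 374 TPM in NC. For Cox6b1 the log2 fold change was -0.40 ± 0.07 (SE, limma adjusted p = 0.011) against Con and -0.41 ± 0.07 (SE, limma adjusted p = 0.0096) against NC. Cox5b, a zinc-binding subunit, was at 397 to 429.9 TPM in Dis, against 511 to 530.2 TPM in Con and 449 to 498 TPM in NC. For Cox5b the log2 fold change was -0.32 ± 0.08 (SE, limma adjusted p = 0.029) against Con and -0.20 ± 0.08 (SE, limma adjusted p = 0.12) against NC.

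Cox4i1, the ubiquitous form of the largest nuclear subunit, was at 862, 784 and 832 TPM in Dis, against 1067, 903 and 963 TPM in Con and 938, 1007 and 972 TPM in NC. Its Dis libraries were below all others, and its log2 fold changes were -0.24 ± 0.09 (SE, limma adjusted p = 0.11) against Con and -0.24 ± 0.09 (SE, limma adjusted p = 0.12) against NC, which did not pass. Cox4i2, the form known from lung, was at 1.83 to 2.73 TPM in Dis, against 3.04 to 3.64 TPM in Con and 3.76 to 4.21 TPM in NC. For Cox4i2 the log2 fold change was -0.43 ± 0.15 (SE, limma adjusted p = 0.077) against Con and -0.67 ± 0.15 (SE, limma adjusted p = 0.019) against NC. Cox4i2, Cox5b, Cox7c and Cox8b were each called in 1 of the 2 comparisons, and a p that missed the threshold does not show that the groups were alike. Against Con, the call of Cox5a was lost without Con1 or Con3 (highest adjusted p 0.078), that of Cox6b1 without Con1 (highest adjusted p 0.054) and that of Cox5b without Con1, Con2, Con3 or NC1 (highest adjusted p 0.090). Against NC, the call of Cox4i2 was lost without NC1, NC2 or NC3 (highest adjusted p 0.077) and that of Cox6b1 without NC1 (highest adjusted p 0.050).

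Subunits 6a, 7a and 8 each have a form of heart and muscle and a form expressed more widely. Cox7a2, the wider form of 7a, was at 114, 95.8 and 124 TPM in Dis, against 136, 126 and 151 TPM in Con and 138, 127 and 134 TPM in NC. For Cox7a2 the log2 fold change was -0.31 ± 0.11 (SE, limma adjusted p = 0.082) against Con and -0.26 ± 0.11 (SE, limma adjusted p = 0.13) against NC. Of the summed TPM of both, Cox7a1 made up 53.3, 44.7 and 51.1% in Dis, against 64.3, 62.7 and 59.3% in Con and 65.8, 67.5 and 67.2% in NC. Its share was lower in every Dis library than in any other (mean 49.7 ± 4.52% in Dis, 62.1 ± 2.55% in Con and 66.8 ± 0.897% in NC, SD, n = 3). For Dis with the 6 other libraries, the exact two-sided test over all 84 choices of 3 libraries gave the smallest p it can (exact permutation p = 0.024, Benjamini-Hochberg adjusted p = 0.035, over 19 measures). This test, here and below, counts every library as an independent unit and pools Con with NC. Dis and Con libraries may come from the same mice, and Con and NC did not overlap for this share. Its p-values therefore describe how these libraries separate, and not a comparison of independent animals. With 3 libraries against 3, no such test can give a p below 0.10.

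The other pairs kept the muscle form at a high share. Cox6a2 was at 1091 to 1199 TPM in Dis, against 1248 to 1363 TPM in Con and 1161 to 1275 TPM in NC. For Cox6a2 the log2 fold change was -0.19 ± 0.09 (SE, limma adjusted p = 0.17) against Con and -0.09 ± 0.09 (SE, limma adjusted p = 0.51) against NC. Of the pair, Cox6a2 made up 97.4, 95.7 and 97.3% in Dis, against 96.6, 97.5 and 96.8% in Con and 97.6, 97.6 and 97.1% in NC. Cox6a1 was at 30.6, 54.4 and 30.2 TPM in Dis, against 44.00, 33.8 and 45.6 TPM in Con and 31.4, 29.4 and 34.6 TPM in NC, with the highest value in Dis2. Cox8b was at 274 to 299 TPM in Dis, against 299 to 322 TPM in Con and 324 to 422 TPM in NC. For Cox8b the log2 fold change was -0.14 ± 0.11 (SE, limma adjusted p = 0.38) against Con and -0.41 ± 0.11 (SE, limma adjusted p = 0.031) against NC, and the call against NC was lost without Dis2, Dis3, Con2, Con3, NC1 or NC3 (highest adjusted p 0.11). Cox8a was at 36.4, 58.6 and 41.8 TPM in Dis, against 47.3, 44.2 and 45.2 TPM in Con and 36.9, 40.6 and 38.7 TPM in NC, again with its highest value in Dis2, and the share of Cox8b was 89.2, 82.7 and 86.7% in Dis, against 86.4, 87.9 and 87.7% in Con and 91.4, 88.8 and 91.6% in NC. For Dis with the 6 other libraries, the share of Cox6a2 gave an exact permutation p = 0.40, Benjamini-Hochberg adjusted p = 0.43, and that of Cox8b an exact permutation p = 0.24, Benjamini-Hochberg adjusted p = 0.27. Cox7a2l was at 112, 160.1 and 114 TPM in Dis, against 120.4, 117 and 124 TPM in Con and 120.2, 115 and 118 TPM in NC. Its log2 fold changes of 0.08 ± 0.13 (SE, limma adjusted p = 0.70) against Con and 0.11 ± 0.13 (SE, limma adjusted p = 0.57) against NC were negative without Dis2, at -0.09 and -0.06.

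The remaining complex IV subunits were Cox6c, Cox6c2, Cox7b, Cox7c and Cox6b2, of which Cox7c alone was called, lower in Dis against NC and not so without NC1, NC2 or NC3 (highest adjusted p 0.092). Cox8c and Cox7b2, both known as testis forms, were listed at 0 in all 9 libraries, and Cox20b was at 0 to 0.120 TPM. None of these was tested, and the fourth untested row was the second row of Atp5o (ENSMUSG00000116933), which was at 0 throughout.

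**Figure D3:**
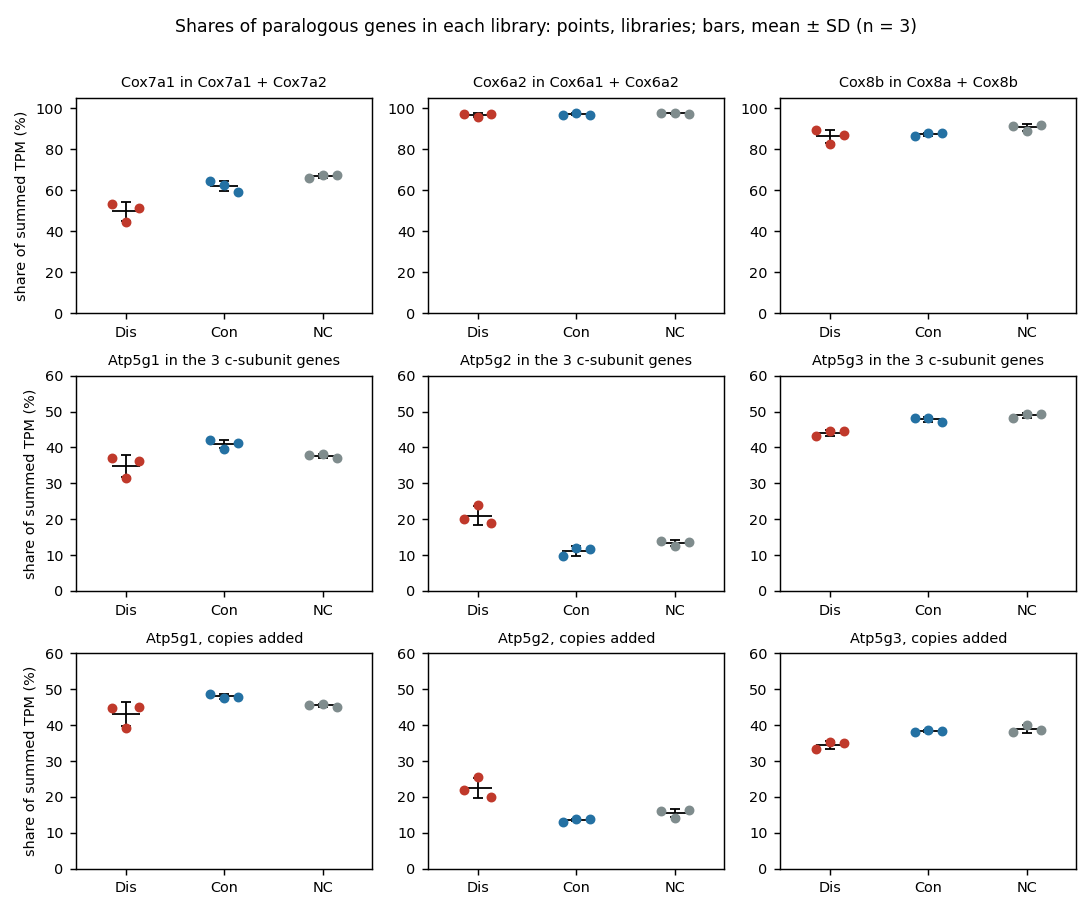
Share of each paralogous gene in the summed TPM of its pair or trio, in percent, for each library (points) with the mean and SD of 3 libraries (bars), in Dis, Con and NC. The share of Cox7a1 was 49.7 ± 4.52% in Dis and 62.1 ± 2.55% in Con, and that of Atp5g2 was 21.01 ± 2.62% in Dis and 11.2 ± 1.27% in Con, with the bottom panels showing the c-subunit shares after adding annotated copies.

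Among the Cox-named assembly factors of complex IV there was no called fall. Of 9 tested (Cox10, Cox11 and Cox14 to Cox20), 0 were called in either direction in either comparison by limma, 1 had an unadjusted p below 0.05 against Con and 2 against NC, and the median log2 fold change was 0.09 against Con and 0.05 against NC in the deposited scale, but -0.13 and -0.18 after median-ratio scaling, where 1 was called lower against NC. Cox17, the copper chaperone of the intermembrane space, was at 104, 103 and 66.2 TPM in Dis, against 66.8, 91.1 and 88.2 TPM in Con and 69.98, 57.6 and 79.99 TPM in NC. For Cox17 the log2 fold change was 0.13 ± 0.20 (SE, limma adjusted p = 0.68) against Con and 0.37 ± 0.20 (SE, limma adjusted p = 0.22) against NC. Cox19, which also acts in copper delivery, was at 29.2, 34.6 and 42.1 TPM in Dis, against 25.5, 31.7 and 29.4 TPM in Con and 27.3, 30.5 and 26.2 TPM in NC. For Cox19 the log2 fold change was 0.28 ± 0.14 (SE, limma adjusted p = 0.20) against Con and 0.32 ± 0.14 (SE, limma adjusted p = 0.15) against NC. Their Dis libraries overlapped with the other groups. Of the 9, 2 had negative values against Con, down to -0.42, and 3 against NC, down to -0.33. Values of Cox10 and Cox20 were negative in both comparisons whichever library was left out. For Cox10 they ran from -0.44 to -0.22 against Con, and without Dis3 it was called lower (limma adjusted p = 0.043 against Con and 0.036 against NC). Cox17, at a mean of 80.7 TPM over all libraries, weighs most in the sums below. Summed over the complex, assembly factors stood at 302, 303 and 257 TPM in Dis, against 254, 281 and 272 TPM in Con and 256, 240.5 and 273 TPM in NC, while subunits stood at 5044, 4749 and 4858 TPM in Dis, against 6020.4, 5673 and 6003 TPM in Con and 5985, 5928 and 6088 TPM in NC. In a share that was added after the values were seen, assembly factors as a percentage of the TPM of complex IV members stood at 5.64, 5.99 and 5.02% in Dis, against 4.05, 4.73 and 4.34% in Con and 4.10, 3.90 and 4.29% in NC. Cox11, Cox15, Cox20 and Sdhaf2 overlap exons of genes on the other strand whose level was over 10% of their own, and whether counting used strand is not stated, so their values are uncertain.

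In complex V, 9 of 17 tested genes fell and 1 rose in Dis against Con, and 12 of 17 fell against NC, with medians of -0.35 and -0.41. The catalytic head and the membrane part differed in their counts: 0 of 5 genes of the F1 head were called by limma against Con (4 at an unadjusted p below 0.05) and 3 of 5 against NC, beside 6 of 8 and 7 of 8 genes of the membrane-bound Fo part called lower. The 4 genes of the peripheral stalk (Atp5o, Atp5pb, Atp5h and Atp5j) were counted in neither. Of these, 3 of 4 were called lower against Con and 2 of 4 against NC. The difference between head and Fo was not tested, and all 5 head genes had negative values in both comparisons. Atp5b, the catalytic beta subunit and the most abundant member, was at 1829, 1565 and 2039 TPM in Dis, against 2320.2, 1988 and 2129 TPM in Con and 2164, 2365 and 2160.1 TPM in NC. For Atp5b the log2 fold change was -0.25 ± 0.12 (SE, limma adjusted p = 0.19) against Con and -0.31 ± 0.12 (SE, limma adjusted p = 0.11) against NC. Atp5a1, the alpha subunit, was at 1145, 938 and 1332 TPM in Dis, against 1541, 1343 and 1389 TPM in Con and 1336, 1520.0 and 1326 TPM in NC. For Atp5a1 the log2 fold change was -0.34 ± 0.14 (SE, limma adjusted p = 0.12) against Con and -0.30 ± 0.14 (SE, limma adjusted p = 0.15) against NC. Dis3 lay inside the Con range for Atp5b and inside the NC range for Atp5a1, and the other Dis libraries lay below both. Atp5c1, the gamma subunit of the rotor, was at 560.3 to 673 TPM in Dis, against 714 to 785 TPM in Con and 756 to 785 TPM in NC. For Atp5c1 the log2 fold change was -0.31 ± 0.09 (SE, limma adjusted p = 0.054), the member nearest above the threshold against Con, and -0.32 ± 0.09 (SE, limma adjusted p = 0.046) against NC.

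Atp5e, the small epsilon subunit of the head, was at 239.5, 213 and 223 TPM in Dis, against 302, 273 and 284 TPM in Con and 350.0, 297 and 403 TPM in NC. For Atp5e the log2 fold change was -0.35 ± 0.12 (SE, limma adjusted p = 0.067) against Con and -0.63 ± 0.12 (SE, limma adjusted p = 0.0098) against NC. In the peripheral stalk, which holds the head still, Atp5o (the OSCP subunit) was at 426 to 551 TPM in Dis, against 615 to 666 TPM in Con and 649.8 to 658 TPM in NC. For Atp5o the log2 fold change was -0.40 ± 0.10 (SE, limma adjusted p = 0.031) against Con and -0.41 ± 0.10 (SE, limma adjusted p = 0.028) against NC. Atp5pb (subunit b) was at 384 to 420.0 TPM in Dis, against 482 to 528 TPM in Con and 448 to 494 TPM in NC. For Atp5pb the log2 fold change was -0.32 ± 0.08 (SE, limma adjusted p = 0.032) against Con and -0.22 ± 0.08 (SE, limma adjusted p = 0.10) against NC. Atp5l, subunit g of Fo and the called member nearest the threshold against Con, was at 199.8 to 227 TPM in Dis, against 254 to 266 TPM in Con and 269 to 304 TPM in NC. For Atp5l the log2 fold change was -0.31 ± 0.09 (SE, limma adjusted p = 0.039) against Con and -0.43 ± 0.09 (SE, limma adjusted p = 0.012) against NC. Atp5k, subunit e of Fo and named after its values were seen, was at 121 to 153 TPM in Dis, against 188 to 210.2 TPM in Con and 179 to 201 TPM in NC. For Atp5k the log2 fold change was -0.58 ± 0.10 (SE, limma adjusted p = 0.010) against Con and -0.51 ± 0.10 (SE, limma adjusted p = 0.014) against NC. Against Con, the call of Atp5o was lost without Dis3, Con1, Con2, Con3, NC1 or NC3 (highest adjusted p 0.10), that of Atp5pb without Dis2, Dis3, Con1, Con2, Con3, NC1 or NC3 (highest adjusted p 0.11) and that of Atp5l without Dis1, Dis2, Con1, Con2, Con3, NC1, NC2 or NC3 (highest adjusted p 0.11). Against NC, the call of Atp5c1 was lost without Dis2, Dis3, Con1, Con2, Con3, NC1, NC2 or NC3 (highest adjusted p 0.12), that of Atp5o without NC1, NC2 or NC3 (highest adjusted p 0.091), that of Atp5l without NC1 or NC3 (highest adjusted p 0.052) and that of Atp5k without NC1 or NC3 (highest adjusted p 0.061).

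A trio of genes encodes the same mature c subunit, which forms the rotating ring of Fo, and its members went different ways. Atp5g1 (chr11:96068852-96075670, minus strand) was at 285, 221 and 306 TPM in Dis, against 512, 424 and 466 TPM in Con and 448, 458 and 463 TPM in NC. For Atp5g1 the log2 fold change was -0.80 ± 0.13 (SE, limma adjusted p = 0.0066) against Con and -0.76 ± 0.13 (SE, limma adjusted p = 0.0066) against NC. Atp5g3 (chr2:73908447-73911326, minus strand) was at 332, 314 and 377 TPM in Dis, against 588, 515 and 532 TPM in Con and 570.0, 593 and 619 TPM in NC. For Atp5g3 the log2 fold change was -0.68 ± 0.10 (SE, limma adjusted p = 0.0050) against Con and -0.80 ± 0.10 (SE, limma adjusted p = 0.0034) against NC. Both were below every Con and NC library in every Dis library, and neither lost its call when any single library was left out. Atp5g2 (chr15:102662864-102672352, minus strand) was at 154, 169 and 161 TPM in Dis, against 118, 129 and 132 TPM in Con and 164, 149.8 and 171 TPM in NC, so Dis lay above Con and within NC. Its log2 fold change was 0.35 ± 0.09 (SE, limma adjusted p = 0.027) against Con and -0.00 ± 0.09 (SE, limma adjusted p = 0.99) against NC, and between Con and NC it was -0.35 ± 0.09 (SE, limma adjusted p = 0.41). The rise against Con was lost without Con1, Con2, Con3 or NC1 (highest adjusted p 0.10), and under median-ratio scaling, quantile normalization, a fit with no mean trend and a fit to Dis and Con alone.

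Of the TPM of the trio, Atp5g2 made up 19.95, 23.99 and 19.1% in Dis, against 9.70, 12.1 and 11.7% in Con and 13.9, 12.5 and 13.7% in NC. Its share was higher in every Dis library than in any other (exact permutation p = 0.024, Benjamini-Hochberg adjusted p = 0.035, Dis with the 6 others). Atp5g3 made up 43.1, 44.6 and 44.7% in Dis, against 48.3, 48.2 and 47.05% in Con and 48.2, 49.4 and 49.4% in NC (exact permutation p = 0.024, Benjamini-Hochberg adjusted p = 0.035). Atp5g1 made up 36.9, 31.4 and 36.3% in Dis, against 42.03, 39.7 and 41.2% in Con and 37.9, 38.1 and 36.9% in NC (exact permutation p = 0.048, Benjamini-Hochberg adjusted p = 0.065). The shares of the trio are parts of the same whole in each library, so their p-values are not separate results. Against NC, Atp5g2 itself was not called and lay within the range of NC, while Atp5g1 and Atp5g3 were called lower. Its higher share is therefore not a rise of its own level against NC. Summed, the trio stood at 771, 704 and 845 TPM in Dis, against 1217, 1068 and 1131 TPM in Con and 1182, 1201 and 1253 TPM in NC. Annotated copies of Atp5g1 and Atp5g2 were measured at 51.1% and 44.7% of the genes' own mean levels, and copies were also over 10% of the level of Uqcr11, Uqcrb, Atp5h, Atp5l and Atp5md, whose levels are uncertain too. With copies added, Atp5g1 was at 448, 349 and 485 TPM in Dis, against 752, 635 and 662 TPM in Con and 684, 678 and 720.2 TPM in NC. Atp5g2 with its copies was at 218, 228 and 216 TPM in Dis, against 203, 185 and 191 TPM in Con and 242, 209 and 259.9 TPM in NC, and its log2 fold change against Con was then 0.19 ± 0.10 (SE, limma adjusted p = 0.19), so its call as higher did not hold. The share of Atp5g2 with copies was 21.8, 25.6 and 20.02% in Dis, against 13.2, 13.8 and 13.8% in Con and 16.2, 14.1 and 16.3% in NC.

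The summed level of subunits was lower in every Dis library than in every Con or NC library for each complex. Complex II subunits summed to 953, 727 and 934 TPM in Dis, against 1299, 1070.4 and 1123 TPM in Con and 1184, 1334 and 1201 TPM in NC, and complex III to 2951, 2538 and 2812 TPM in Dis, against 3869, 3407 and 3616 TPM in Con and 3541, 3699 and 3713 TPM in NC. Complex V summed to 7706, 6695 and 7839 TPM in Dis, against 9886, 8908 and 9366 TPM in Con and 9413, 9849 and 9640.0 TPM in NC. On the log2 scale, Dis minus the mean of the 6 other libraries was -0.47 for complex II, -0.40 for complex III, -0.28 for complex IV and -0.36 for complex V. Each reached the smallest p of the test (exact permutation p = 0.024, Benjamini-Hochberg adjusted p = 0.035). The sum of complex IV assembly factors differed by 0.13 (exact permutation p = 0.095, Benjamini-Hochberg adjusted p = 0.12). The plot of sums relative to NC sets these side by side.

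**Figure D4:**
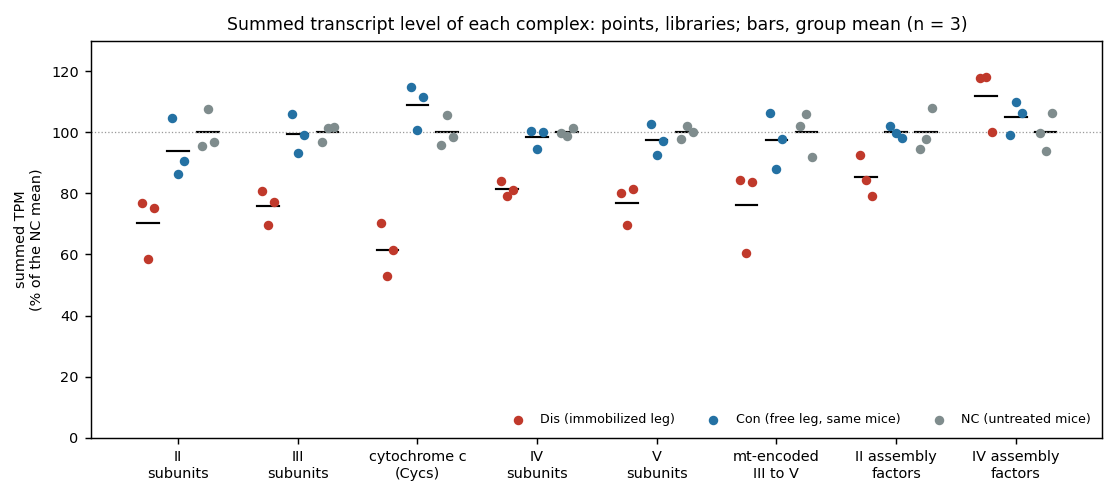
Summed TPM of each group of genes as a percentage of the NC mean, for each library (points) with the group mean (bars), in Dis, Con and NC. Dis subunit sums lie between 52.9% (Cycs) and 84.1% (complex IV) of the NC mean, and complex IV assembly factors between 100.3% and 118% in Dis.

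The mitochondrial genome encodes core subunits of the same complexes, and their mRNAs moved alongside. The 6 mitochondrially encoded mRNAs of complexes III to V summed to 114731, 82344 and 114000.1 TPM in Dis, against 144780.4, 119723 and 133346 TPM in Con and 139060.0, 144297 and 124979.6 TPM in NC. The ratio of nuclear members of complexes III to V to these mRNAs was 0.139, 0.173 and 0.138 in Dis, against 0.138, 0.153 and 0.144 in Con and 0.138, 0.137 and 0.158 in NC, highest in Dis2, and did not separate the groups (exact permutation p = 0.52, Benjamini-Hochberg adjusted p = 0.52, Dis with the 6 others). Of the 13 mitochondrially encoded mRNAs, mt-Nd3 and mt-Co3 were called lower against NC and none against Con, where mt-Co2 came nearest with -0.46 ± 0.15 (SE, limma adjusted p = 0.065), and all 13 had negative values in both comparisons (median -0.31 and -0.32). Neither call held under quantile normalization, where limma gave an adjusted p of 0.080 for mt-Nd3 and 0.15 for mt-Co3. Both held after median-ratio scaling (limma adjusted p = 0.021 for mt-Nd3 and 0.029 for mt-Co3) and without Dis2 (limma adjusted p = 0.031 and 0.028).

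The same direction was seen in complex I, where 14 of 36 nuclear subunits were lower and 0 higher in Dis against Con (median -0.25), and 19 lower and 0 higher against NC (median -0.30). The largest changes against Con were in Ndufb2, an accessory subunit, with -0.76 ± 0.14 (SE, limma adjusted p = 0.010), and in Ndufs8, an iron-sulphur subunit, with -0.65 ± 0.11 (SE, limma adjusted p = 0.0076). Ndufa4, now counted as a complex IV subunit, was at 437 to 525 TPM in Dis, against 479 to 536 TPM in Con and 531 to 589 TPM in NC and was not called. Of 31 assembly factors named outside the symbol rule, 5 were lower and 2 higher against Con (median -0.13), and 7 lower and 1 higher against NC (median -0.15). Beside these lists, 3.08% of all tested genes were lower and 14.1% higher against Con, and 2.99% and 13.6% against NC. Taco1, which activates translation of mt-Co1, had -0.73 ± 0.17 (SE, limma adjusted p = 0.024) against Con and lost the call against NC without Dis2 (adjusted p = 0.070), and Bcs1l, which inserts the Rieske protein into complex III, had -0.65 ± 0.14 (SE, limma adjusted p = 0.016). Of complex IV assembly factors in that list, Coa6 was called lower, with -0.44 ± 0.09 (SE, limma adjusted p = 0.017) against Con and -0.32 ± 0.09 (SE, limma adjusted p = 0.047) against NC. Surf1, which acts in early assembly of complex IV, was called higher, with 0.55 ± 0.10 (SE, limma adjusted p = 0.011) against Con and 0.61 ± 0.10 (SE, limma adjusted p = 0.0070) against NC, and after median-ratio scaling its adjusted p against Con was 0.062 by limma. Coa6 and Surf1 were named after their values were seen.

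Of 12 regulators of these genes, 4 were lower and 2 higher in Dis against Con, and 3 lower and 1 higher against NC. Over all tested genes, 3.08% were lower and 14.1% higher against Con, and 2.99% and 13.6% against NC, so the counts of higher regulators are near that share. Perm1, a muscle cofactor of the ERR receptors, was at 47.1, 22.8 and 73.3 TPM in Dis, against 144, 118 and 110.1 TPM in Con and 102, 136 and 97.04 TPM in NC. For Perm1 the log2 fold change was -1.51 ± 0.35 (SE, limma adjusted p = 0.021) against Con and -1.35 ± 0.35 (SE, limma adjusted p = 0.029) against NC. Esrrb, an ERR receptor of low level, had -1.12 ± 0.29 (SE, limma adjusted p = 0.030) against Con and -1.02 ± 0.29 (SE, limma adjusted p = 0.041) against NC, at 1.06 to 2.19 TPM in Dis, against 3.18 to 5.33 TPM in Con and 2.99 to 5.84 TPM in NC. The other called falls were in the ERR receptors Esrra and Esrrg, named after their values were seen. Esrra had -0.60 ± 0.11 (SE, limma adjusted p = 0.011) against Con and -0.61 ± 0.11 (SE, limma adjusted p = 0.0096) against NC. Esrrg had -1.04 ± 0.29 (SE, limma adjusted p = 0.039) against Con, where the call was lost without Dis2 (limma adjusted p = 0.053), and was not called against NC. Ppargc1a, the coactivator PGC-1alpha, was at 3.95 to 9.77 TPM in Dis, against 6.00 to 8.17 TPM in Con and 6.51 to 7.48 TPM in NC and was not called, and its value against Con changed sign to 0.24 without Dis2. The genes called higher against Con were Nrf1 and Gabpb1, and neither was called without Dis2 (adjusted p = 0.071 and 0.099) or after median-ratio scaling (adjusted p = 0.26 and 0.25), by limma.

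No member was called between Con and NC. Of 61 members, 0 were lower and 0 higher in Con against NC, where 0.0062% of all tested genes were called lower and 0.0% higher, and 3 members had an unadjusted limma p below 0.05. The median log2 fold change was -0.03, and values ran between -0.35 and 0.36. The lowest adjusted p was that of Atp5g2, with -0.35 ± 0.09 (SE, limma adjusted p = 0.41), followed by Cox8b with -0.27 ± 0.11 (SE, limma adjusted p = 0.76) and Atp5e with -0.28 ± 0.12 (SE, limma adjusted p = 0.77). All 3 Con libraries lay below all 3 NC libraries for 8 members (8.11% of all tested genes) and above them for 3 (9.54% of all tested genes). Among the shares, those of Cox7a1, Cox8b and Atp5g2 were lower in every Con library than in any NC library, and that of Atp5g1 was higher, where 3 libraries against 3 cannot give an exact permutation p below 0.10. Dis against Con and Dis against NC use the same 3 Dis libraries, so they are not independent of each other.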

How the data were processed

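RNA of 9 gastrocnemius libraries was sequenced. The deposited TPM values were made by the authors: the submitters' processing notes name bcl2fastq 2.20 and HISAT2, and the methods list StringTie under differential expression, while the tool that gave the TPM is not given in the sources used here. Each gene has 1 value per library. The genome build is not given in the sources used here. Of the deposited loci, 54864 of 55487 had the coordinates of GENCODE M21 (GRCm38), as had 64 of the 65 members, all but Cox14. Coordinates printed here are on GRCm38. A stand-in of 0.0001 TPM for undetected genes was set to 0.

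Values were tested as log2(TPM + 0.5), so fold changes of low genes are understated, with limma 3.58.1 in R 4.3.3 (mean trend, all 3 groups in 1 fit), after a filter of 0.3 TPM in at least 3 libraries. The p-values were adjusted by Benjamini-Hochberg over 16140 genes, with a threshold of 0.05. They measure the spread between these libraries, which the study describes as coming from separate mice within a group. The main fit also treats Dis and Con libraries as independent, although they may come from the same mice. Its p-values of Dis against Con may therefore not compare independent animals. Sums and shares were compared by exact two-sided permutation over libraries (scipy 1.17.1). The permutation treats libraries as exchangeable, although Dis and Con libraries may come from the same mice. Where Dis was set against all other libraries, Con and NC were pooled. The fitting code was checked on simulated data. Copies were other genes sharing at least 30% of a transcript's runs of 50 bases with a member.

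Members named with values were the catalytic and carrier subunits, paralogue pairs with a muscle form and the c-subunit genes, in each complex the 2 lowest adjusted p and the highest fold change, assembly factors that were called, members nearest the threshold and members not tested, and any other was named after its values were seen. Members and lists were chosen with earlier results of these data known. Other pseudocounts, filters, scalings, weights, fits, a replicate block and leaving out each library were tried. Protein sequences were not used here.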

Additional observations from a re-analysis of the deposited data

How the results depend on the processing

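Of 39 members followed under each alternative, 0 changed sign in a comparison in which they were called. Fitted to the 2 compared groups alone, 7 members were lower against Con and 19 against NC, beside 209 and 243 of all tested genes. The 1 member higher against Con gave 0 with median-ratio scaling, 0 with quantile normalization, 0 with no mean trend, 0 in the fit to 2 groups and 0 with copies added. Leaving out single libraries gave 6 to 25 members lower and 0 to 1 higher against Con, and 14 to 30 lower and 0 to 1 higher against NC. Over all tested genes these fits called 187 to 574 lower and 513 to 2435 higher against Con. Against NC they called 184 to 547 lower and 652 to 2607 higher. With the replicate number of the titles as a block, 21 members were lower against Con and 26 against NC, beside 416 and 420 of all tested genes. The labels do not say that these numbers pair libraries, so they were not taken to do so. Deviations from the group mean in same-numbered Dis and Con libraries correlated at -0.011, -0.019 and 0.022. Those of Dis and Con libraries with different numbers ran from -0.086 to 0.089. With 3 libraries per group, such values cannot show whether Dis and Con libraries share a mouse.

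Values of members that were not called changed sign as follows. Against Con, with median-ratio scaling and then quantile normalization, the log2 fold change was -0.10 and -0.059 for Cox17, -0.15 and -0.11 for Cox7a2l, and -0.19 and -0.20 for Sdhaf1. With array weights it was -0.023 for Cox7a2l and -0.004 for Sdhaf1, and without mitochondrially encoded genes -0.039 for Sdhaf1. Against NC, the same 2 scalings gave -0.029 and -0.012 for Cox6a1, -0.14 and -0.11 for Cox7a2l, -0.039 and -0.020 for Cox8a, -0.054 and -0.058 for Sdhaf1, -0.050 and -0.065 for Sdhaf3, and -0.20 and -0.0052 for Uqcrb. Uqcrb was at -0.040 without mitochondrially encoded genes and at -0.051 with copies added. Leaving out single libraries gave, against Con, -0.010 to 0.34 for Cox17, -0.42 to 0.0008 for Cox6a1, -0.087 to 0.17 for Cox7a2l, -0.22 to 0.12 for Cox8a, -0.032 to 0.10 for Sdhaf1, and against NC -0.056 to 0.041 for Atp5g2, -0.063 to 0.36 for Cox6a1, -0.057 to 0.20 for Cox7a2l, -0.060 to 0.099 for Uqcrb. The difference from Con in percentage points ran over -0.465 to 0.403 for the share of Cox6a2 and over -2.58 to 0.647 for that of Cox8b. The cause was not tested. Alternatives that summed members with their copies were chosen after seeing the data. Depth is unknown in TPM, so 3 libraries per group limit what could be called.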
